A study of Sus scrofa with 6 samples.

Results

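The heat shock proteins and co-chaperones of pig longissimus dorsi, the muscle along the spine, were examined in 6 RNA-sequencing libraries. A gene was a member if its Ensembl pig symbol was CRYAB or began with HSPA, HSPB, HSPD, HSPE, HSPH, HSP90, DNAJA, DNAJB, DNAJC or BAG and a digit. This rule uses names only, and it took 64 of the 12671 loci in the table, of which 9764 have a symbol. The members were 10 HSPA genes, 5 small heat shock proteins (CRYAB and 4 HSPB genes), HSPD1, HSPE1, HSPH1, 3 HSP90 genes, 4 DNAJA, 9 DNAJB and 22 DNAJC genes and 6 BAG genes. HSPBP1 and HSPBAP1 also begin with HSPB and were kept, although they are binding partners and not small heat shock proteins. HSPA6, HSPB7, HSPB9, DNAJB13, DNAJC5B, DNAJC6, DNAJC22 and DNAJC30 also fit the rule by name. No locus in the table carried these symbols, so they were not analysed here.

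The pigs were females of the Chinese QingYu breed (Qinyu Pig in the labels), with no treatment named. Muscle of 3 was taken at the inflection point of the growth curve (IP), where growth is fastest, and of 3 at the plateau phase (PP), where growth is slowest. The study places these phases at 178 and 395 days of age, but the age label of all 6 libraries reads 178 days, so the phases were taken from the sample titles. Age, body weight and growth rate differ together between the phases and cannot be told apart. The values are TPM, which set reads against transcript length and library total, and they keep no number of reads, so the depth behind each value is unknown and the only error given is that among the 3 libraries of each phase.

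Chaperones bind unfolded or aggregation-prone proteins. The small heat shock proteins hold them without using ATP, the HSP70 proteins (the HSPA genes) fold them in cycles of ATP hydrolysis, and the HSP90 proteins finish selected clients such as kinases and steroid receptors. J-domain proteins (the DNAJ genes) deliver clients to HSP70 and start its hydrolysis, while HSPH1 and most BAG proteins exchange its nucleotide. In striated muscle, CRYAB, HSPB1 and HSPB8 associate with desmin, actin and the Z-disc, and BAG3 links HSPB8 and HSP70 to the removal of damaged filamin.

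The libraries differed as wholes. The median TPM of all loci was 4.69, 6.12 and 3.03 in IP replicates 1, 2 and 3 and 2.98, 4.52 and 3.18 in PP replicates 1, 2 and 3. A single assembled locus took from 21.8% to 35.8% of the TPM. Over the 10896 loci tested, the median log2 fold change (IP minus PP, on log2(TPM + 1)) was 0.25, and it was -0.01 when each library was divided by its median ratio to the others. Member differences are therefore given on both scales for many members, but not for every member whose sign depends on it. DNAJB9, DNAJB14, DNAJC1, DNAJC15 and BAG5, described below on the deposited scale, were above 0 there and below 0 after this division. Of the skeletal muscle markers, ACTA1, CKM, TNNT3 and TNNC2 summed to between 29017 and 53374 TPM, and the markers of macrophages and other leukocytes to between 7.29 and 12.4 TPM. Adipocyte markers (4 of 5 in the table) summed to 235 to 350 TPM at the IP against 220 to 523 TPM at the PP, mostly FABP4, while CIDEC had 14.5, 12.1 and 11.7 TPM at the IP against 5.56, 2.99 and 3.90 TPM at the PP. The sums of the fibroblast markers (5 of 5, 236 to 410 TPM at the IP against 194 to 305 TPM at the PP), smooth muscle markers (3 of 3, 98.4 to 184 TPM against 80.4 to 99.7 TPM) and endothelial markers (3 of 4, 21.97 to 48.8 TPM against 20.4 to 24.8 TPM) were all highest in IP replicate 2, as most members were. The fibroblast marker COL1A1 had 18.1, 31.5 and 10.3 TPM at the IP against 5.65, 5.46 and 6.60 TPM at the PP, and COL1A2 and COL3A1 were likewise above in each IP library. The others of that list overlapped between the phases. DCN had 112, 173 and 151 TPM at the IP against 211, 146 and 172 TPM at the PP, and PDGFRA 4.51, 10.7 and 5.89 TPM against 4.86, 5.26 and 5.05 TPM. The part of these cell types in the members' values was not tested. No marker found in the table was at 0 in all 6 libraries.

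Promoter sequences are shown for 4 members, because heat shock genes are classically defined by the heat shock element, the site of the heat shock factors. The stretches are the 250 bases before the RefSeq gene start in Sscrofa11.1, read 5′ to 3′ on the gene's strand. The element was searched on both strands as 3 alternating units, GAA and TTC in turn, with any 2 bases between units. It was found in 5 of the 61 members with a RefSeq promoter (8.20%) and in 0.332% of 19572 promoters of protein-coding genes. These were HSPA8, HSP90AB1, HSPD1, DNAJB6 and DNAJB14. HSP90AA1, BAG5 and DNAJC25 were not among the 61, so no result is given for them. A single pair of units, GAANNTTC or TTCNNGAA, was in 14 of the 61 (23.0%) and in 10.5% of all promoters, and the whole element contains both pairs. The ER stress element, the site of the unfolded protein response, was searched as CCAAT and CCACG with 9 bases between, and was in HSP90B1 alone of the 61 (1.64%) and in 0.072% of all promoters. Capitals mark these elements. A match describes the letters only, and no binding was measured. The absence of a match, as in HSPA5, covers only exact letters and spacing in these 250 bases. It does not show that a gene lacks the element. The HSPA8 stretch is on chromosome 9 (49986761 to 49987010, minus strand) with elements at -222 to -210 and, on the other strand, -55 to -43 from the gene start. The HSP90AB1 stretch is on chromosome 7 (39237049 to 39237298, plus strand). The HSPD1 stretch is on chromosome 15 (101373499 to 101373748, minus strand). The HSP90B1 stretch is on chromosome 5 (80531017 to 80531266, minus strand) and holds the ER stress element once on each strand.
HSPA8: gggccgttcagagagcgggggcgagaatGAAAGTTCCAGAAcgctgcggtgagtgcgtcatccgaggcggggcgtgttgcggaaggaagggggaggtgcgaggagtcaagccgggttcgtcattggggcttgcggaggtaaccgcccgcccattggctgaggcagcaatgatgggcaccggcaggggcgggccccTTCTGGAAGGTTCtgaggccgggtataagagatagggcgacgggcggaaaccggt
HSP90AB1: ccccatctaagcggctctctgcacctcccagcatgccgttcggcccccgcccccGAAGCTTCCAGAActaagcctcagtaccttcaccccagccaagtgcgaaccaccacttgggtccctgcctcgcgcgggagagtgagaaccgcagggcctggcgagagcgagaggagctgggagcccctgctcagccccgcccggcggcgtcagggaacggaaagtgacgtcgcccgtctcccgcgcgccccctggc
HSPD1: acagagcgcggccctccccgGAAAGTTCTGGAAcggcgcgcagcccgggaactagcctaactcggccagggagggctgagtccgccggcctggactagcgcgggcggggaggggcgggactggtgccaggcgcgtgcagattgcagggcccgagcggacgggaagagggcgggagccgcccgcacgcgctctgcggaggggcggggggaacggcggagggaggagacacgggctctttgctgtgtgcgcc
HSP90B1: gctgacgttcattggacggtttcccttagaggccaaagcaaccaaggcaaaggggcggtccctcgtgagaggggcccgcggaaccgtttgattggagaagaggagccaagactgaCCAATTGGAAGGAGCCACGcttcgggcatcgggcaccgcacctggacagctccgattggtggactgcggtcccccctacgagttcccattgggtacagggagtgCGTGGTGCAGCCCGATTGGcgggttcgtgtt

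Together the 64 members took 0.395%, 0.803% and 0.446% of the TPM in IP replicates 1, 2 and 3 and 0.516%, 0.369% and 0.468% in PP replicates 1, 2 and 3. The level per transcript ran over more than 3 orders of size, from CRYAB (mean of the 6 libraries 1081 TPM), HSPE1 (867 TPM), HSPA8 (633 TPM), HSPB8 (508 TPM) and HSPB1 (271 TPM) to members near 1 TPM. These 5 genes made up between 57.7% and 75.9% of the summed TPM of the members in each library. CRYAB or HSPE1 was the most abundant member in every library. IP replicate 2 held the highest value of 49 of the 64 members and the lowest of none. Among the loci fitted it held the highest value of 76.2% of the members and of 61.8% of all loci, and the lowest of 1.99% of all loci.

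**Figure D1:**
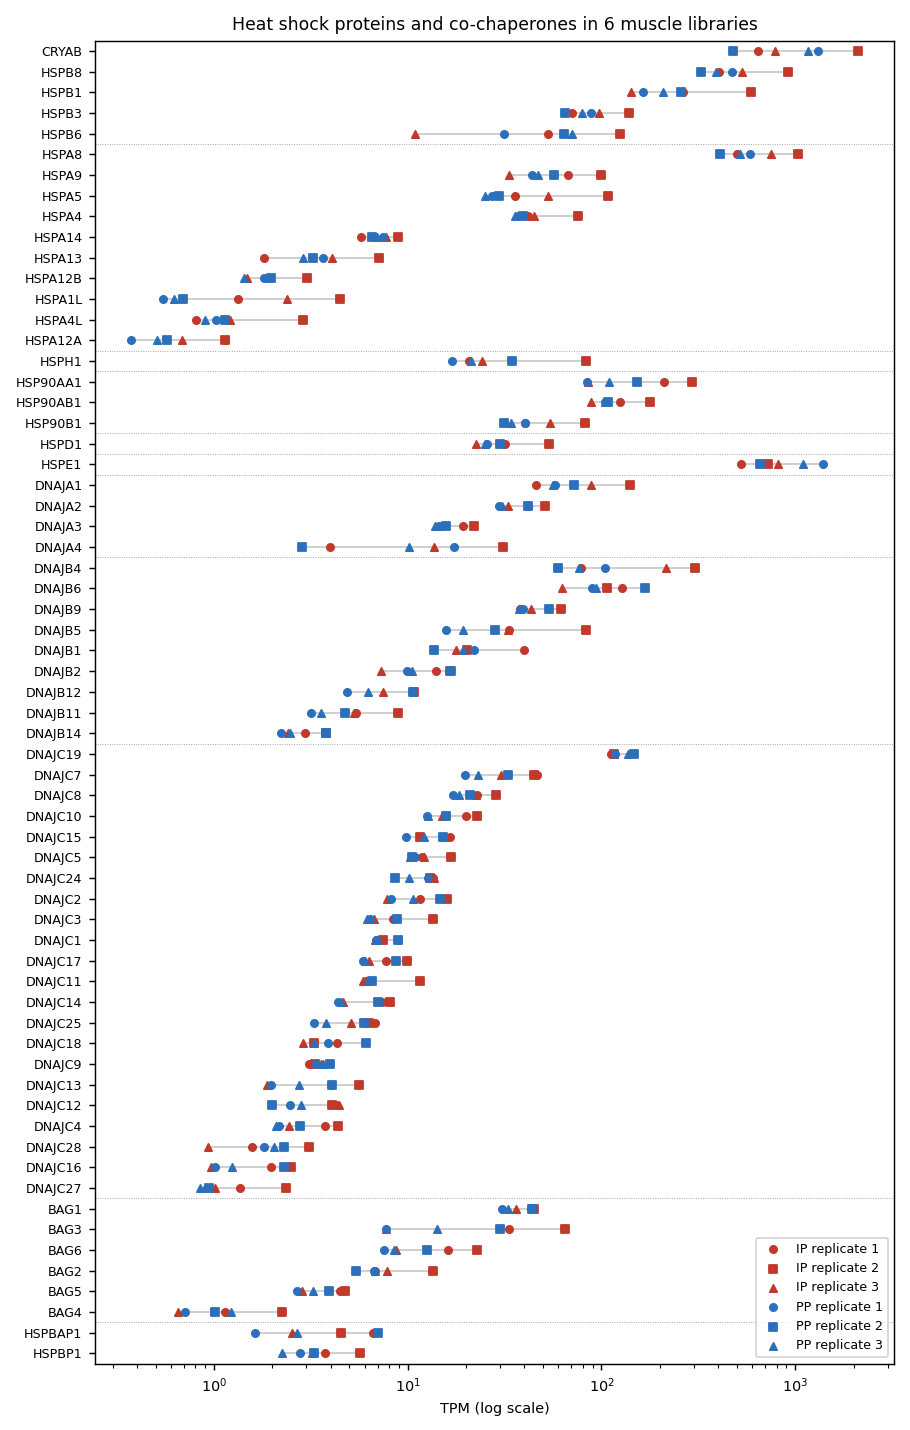
TPM of each of the 64 members (rows, by family and falling mean) in the 6 libraries, on a log axis. Red symbols are IP libraries, blue symbols PP libraries, and the shape gives the replicate; CRYAB, HSPE1, HSPA8, HSPB8 and HSPB1 lie at the right, and the red squares of IP replicate 2 are the highest point of 49 rows.

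The comparison of the phases asks whether chaperone expression differed between the muscle of fastest and of slowest growth. The 63 members with at least 1 TPM in at least 3 libraries were read from one fit over all 10896 such loci (limma, 2-sided, Benjamini-Hochberg adjustment). HSPA12A, an atypical relative of HSP70 with 1.14, 1.14 and 0.682 TPM at the IP against 0.375, 0.571 and 0.508 TPM at the PP, was not fitted. None of the 63 passed an adjusted p under 0.05, against 0.147% of all loci, and the smallest adjusted p was 0.429. At an unadjusted p under 0.05, 6 members were higher at the IP (9.52%, against 5.86% of all loci) and none was higher at the PP (against 1.06%). Of these, 4 (6.35%) also had a log2 fold change of 1 or more in size, a pair of limits met by 2.57% of all loci. HSPA1L, among the 6 and the 4, met the filter on low values only through its IP libraries. With 1 TPM required in all 6 libraries, 5 members had an unadjusted p under 0.05 (8.77%, against 6.78% of all loci). With median-ratio scaling 2 members were higher at the IP (3.23%, against 4.07% of all loci) and 1 at the PP (1.61%, against 3.99%), so the excess over the background was not seen on that scale. Of the 6, HSPA1L and DNAJB5 kept an unadjusted p under 0.05 on that scale. Counted in both directions, the 6 members (9.52%, against 6.93% of all loci) became 3 without IP replicate 2 (4.76%, against 4.73%), 14 without IP replicate 3 (22.2%, against 21.9%), 3 without PP replicate 1 (4.76%, against 4.23%) and 1 without PP replicate 3 (1.59%, against 2.85%), so these counts moved with all loci. Without IP replicate 1 they were 8 (12.7%, against 4.86%).

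A log2 fold change above 0 was found for 55 of the 63 members (87.3%, against 82.6% of all loci), and the median of the members was 0.32 beside 0.25 for all loci. With median-ratio scaling 35 of 62 lay above 0 and the median was 0.03 beside -0.01. In 12 members each IP library lay above each PP library (19.0%, against 10.8% of all loci) and in 1 the reverse held (1.59%, against 2.02%). With median-ratio scaling these counts were 5 (8.06%, against 6.64%) and 4 (6.45%, against 7.32%). The 12 were HSPA1L, HSPA4, HSPA5, HSP90B1, DNAJB5, DNAJB11, DNAJC5, DNAJC8, DNAJC12, DNAJC24, DNAJC27 and BAG2, and of these HSPA1L, DNAJB5 and DNAJB11 were still separated after that scaling. HSPA1L and DNAJC27 had 1 TPM or more in the IP libraries only, so the filter on low values fixed their separation as deposited. With 1 TPM required in all 6 libraries, 11 members were separated in either direction (19.3%, against 13.1% of all loci). Fewer libraries overlap less by construction. In either direction, 22 members were separated without IP replicate 1 (34.9%, against 18.2% of all loci), 29 without IP replicate 3 (46.0%, against 43.8%) and 26 without PP replicate 2 (41.3%, against 33.1%).

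**Figure D2:**
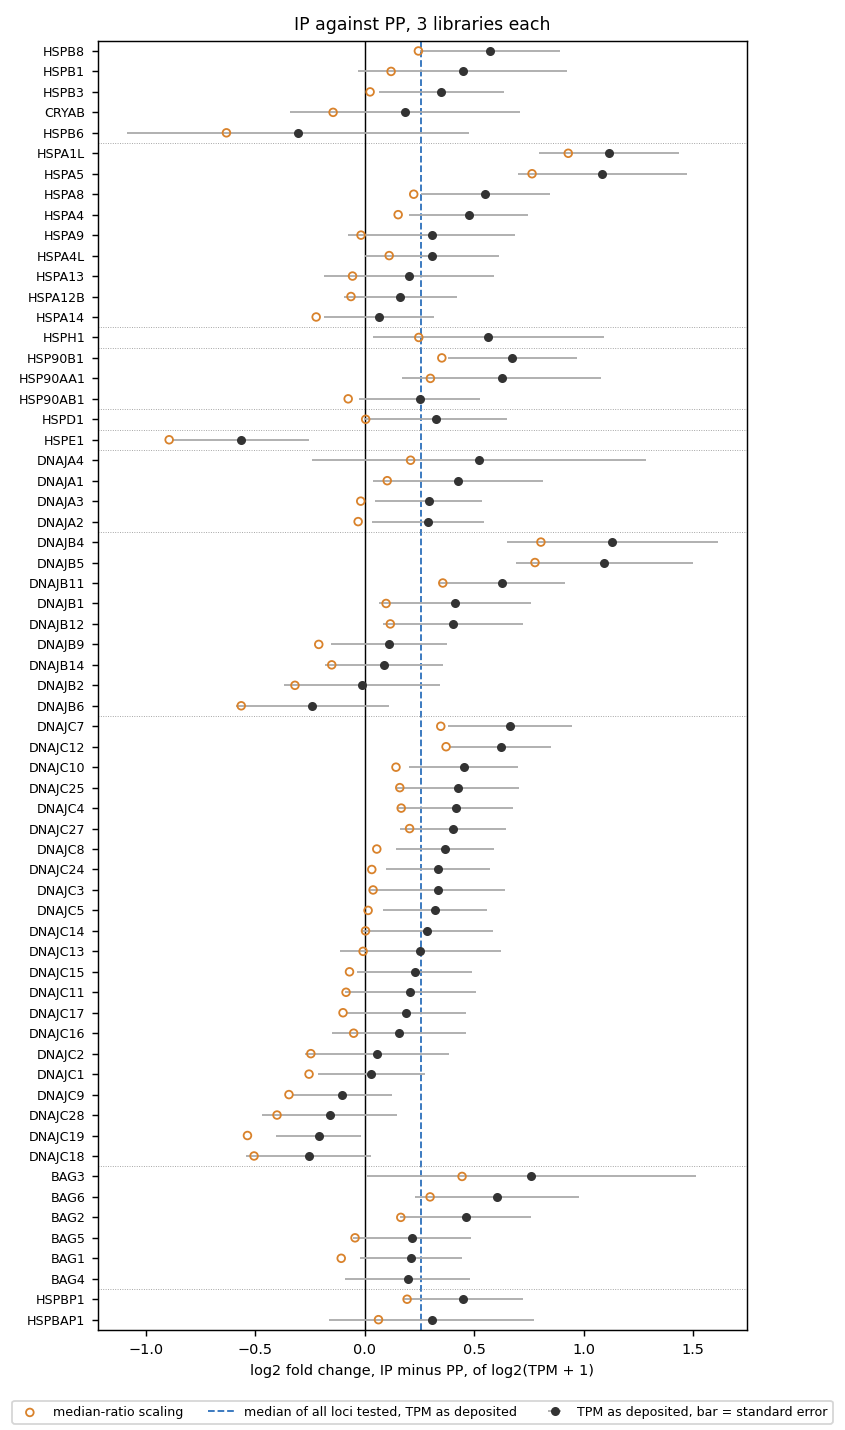
Log2 fold change of each of the 63 fitted members, IP minus PP on log2(TPM + 1), by family. Black points with bars are the fit to TPM as deposited with its standard error, open orange points the value after median-ratio scaling, and the dashed line the median of all loci (0.25); the orange points lie to the left, and DNAJB4, HSPA1L, DNAJB5 and HSPA5 are the members above 1.

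The small heat shock proteins were the most abundant family, and none of the 5 differed between the phases in the fit. CRYAB, the alpha B-crystallin that protects desmin, had 643, 2109 and 785 TPM in the IP libraries against 1303, 478 and 1170 TPM in the PP libraries (1179 ± 808 and 983 ± 443 TPM, mean ± SD, n = 3 each). The phases overlapped, with the highest value and 2 of the 3 lowest at the IP, and the log2 fold change of 0.18 was -0.15 with median-ratio scaling. DNAJA4, a cytosolic J-domain protein, had the same order of libraries at lower values, from 2.86 and 3.995 TPM in PP replicate 2 and IP replicate 1 to 31.0 TPM in IP replicate 2, except that PP replicate 3 lay below IP replicate 3.

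IP replicate 1 and PP replicate 2 were also the 2 libraries with the lowest summed TPM of slow-fibre genes, a list chosen after the values of CRYAB were seen. The 6 genes found in the table (MYL2, MYL3, TNNC1, TNNI1, TNNT1 and ATP2A2) summed to 4605, 9511 and 7783 TPM at the IP against 12287, 4404 and 10028 TPM at the PP. MYL2 and TNNC1 carried most of this sum, and ATP2A2 had another order, with 104, 242 and 85.2 TPM at the IP against 53.2, 69.7 and 55.1 TPM at the PP. The part of fibre composition in the values of CRYAB was not tested, and in whole muscle fewer fibres of a type and less RNA per fibre cannot be told apart. In all, 6 members had these libraries as their lowest (CRYAB, HSPB3, HSPA8, HSPA14, HSPE1 and DNAJA4, 9.52% of the members fitted, beside 5.21% of all loci).

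**Figure D3:**
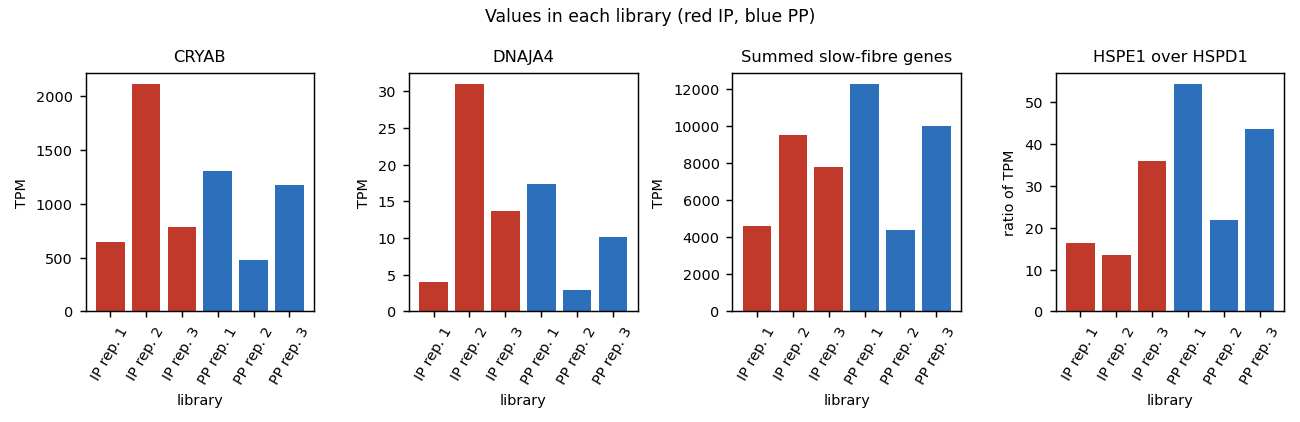
Bars give, for each of the 6 libraries (red IP, blue PP), the TPM of CRYAB and DNAJA4, the summed TPM of 6 slow-fibre genes, and the ratio of HSPE1 to HSPD1 TPM. CRYAB, DNAJA4 and the slow-fibre sum are lowest in IP replicate 1 and PP replicate 2, and the ratio runs from 13.5 in IP replicate 2 to 54.3 in PP replicate 1.

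HSPB8, the partner of BAG3, had 406, 919 and 532 TPM at the IP against 471, 327 and 390 TPM at the PP. Only IP replicate 1 lay within the PP values (log2 fold change 0.57, standard error 0.32, adjusted p = 0.789). With median-ratio scaling the log2 fold change was 0.24. HSPB1, which binds actin and protects it under stress, had 264, 592 and 142 TPM at the IP against 163, 257 and 209 TPM at the PP, with both the highest and the lowest value at the IP. HSPB3, a muscle-enriched member, ran from 64.7 TPM in PP replicate 2 to 138 TPM in IP replicate 2. HSPB6, a small heat shock protein of smooth and striated muscle, had the widest spread of the family, with 52.8, 125 and 10.9 TPM at the IP against 31.4, 64.4 and 70.7 TPM at the PP. The highest and the lowest values of HSPB6 were again both at the IP. The ratio of CRYAB to HSPB1 was from 1.86 in PP replicate 2 to 8.00 in PP replicate 1, so the family did not vary as one.

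Among the HSPA genes, all 9 fitted had a log2 fold change above 0, but 4 of them (HSPA9, HSPA12B, HSPA13 and HSPA14) lay below 0 with median-ratio scaling. HSPA8, the constitutive HSP70 of the cytosol and the uncoating ATPase of clathrin, had 500, 1034 and 752 TPM at the IP against 583, 408 and 518 TPM at the PP (means 762 ± 267 and 503 ± 88.3 TPM, ± SD, n = 3). IP replicates 2 and 3 lay above every PP library and IP replicate 1 did not (log2 fold change 0.55, standard error 0.29, adjusted p = 0.784). With median-ratio scaling the log2 fold change was 0.22. Processed copies of HSPA8 are common in mammalian genomes, and whether shared reads affect its value was not tested.

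HSPA5, the HSP70 of the endoplasmic reticulum known as BiP, had 35.6, 108 and 53.0 TPM at the IP against 27.3, 29.7 and 25.0 TPM at the PP (means 65.5 ± 37.8 and 27.3 ± 2.38 TPM, ± SD, n = 3). Every IP library lay above every PP library, and the PP libraries lay close together. The log2 fold change was 1.08 (standard error 0.39, unadjusted p = 0.0235, adjusted p = 0.613). It was 0.76 with median-ratio scaling, where the phases overlapped (unadjusted p = 0.0609), and between 0.65 and 1.44 with a library left out, the lower end without IP replicate 2.

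HSPA1L, a cytosolic HSP70 best known from the testis, had the smallest p of all members at low levels of 1.33, 4.46 and 2.39 TPM at the IP against 0.548, 0.689 and 0.622 TPM at the PP. It met the filter of 1 TPM in 3 libraries only through its IP libraries, so being fitted already favoured the IP, and its p is no independent support. The phases did not overlap (log2 fold change 1.11, standard error 0.32, unadjusted p = 0.00858, adjusted p = 0.429), and with median-ratio scaling the value was 0.93. It lies on chromosome 7 of Sscrofa11.1 (23909960 to 23938678) beside its close relatives HSPA1A and HSPA1B in other mammals, and whether reads from these were assigned to it was not tested. HSPA4, a nucleotide exchange factor of HSP70, had 41.8, 75.6 and 44.9 TPM at the IP against 37.1, 39.2 and 35.6 TPM at the PP. The 3 IP values of HSPA4 were above the PP values as deposited (log2 fold change 0.47, adjusted p = 0.796). With median-ratio scaling its phases overlapped and the log2 fold change was 0.15. HSPA9, mortalin, which pulls proteins into the mitochondrial matrix, had 67.2, 99.0 and 33.4 TPM at the IP against 43.8, 56.6 and 47.1 TPM at the PP. Here IP replicate 3 was below every PP library. HSPH1, the cytosolic HSP110, had 20.7, 82.8 and 24.2 TPM at the IP against 16.9, 34.5 and 21.3 TPM at the PP, and IP replicate 2 alone stood apart. HSPA4L, HSPA12B, HSPA13 and HSPA14 had means between 1.02 and 7.45 TPM in either phase, and the phases overlapped in each.

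The 3 HSP90 genes differed in their library pattern. HSP90AA1, the inducible cytosolic form and a chaperone of myosin, had 211, 292 and 84.9 TPM at the IP against 84.0, 152 and 110 TPM at the PP. IP replicates 1 and 2 were above every PP library and IP replicate 3 was next to the lowest (log2 fold change 0.63, standard error 0.45, adjusted p = 0.805). With median-ratio scaling the log2 fold change of HSP90AA1 was 0.30. HSP90AB1, the constitutive form, varied less, with 125, 179 and 88.2 TPM at the IP against 104, 108 and 104 TPM at the PP, and its log2 fold change of 0.25 was -0.08 with median-ratio scaling. The ratio of HSP90AA1 to HSP90AB1 was 1.68, 1.63 and 0.963 in the IP libraries against 0.807, 1.41 and 1.06 in the PP libraries, so the constitutive form was the more abundant in IP replicate 3 and PP replicate 1 only. HSP90B1, the HSP90 of the endoplasmic reticulum and carrier of the ER stress element shown above, had 40.13, 82.1 and 54.1 TPM at the IP against 40.08, 31.3 and 34.0 TPM at the PP. Its phases were barely separated as deposited (log2 fold change 0.67, standard error 0.29, adjusted p = 0.731). After median-ratio scaling they overlapped, and the log2 fold change was 0.35 (unadjusted p = 0.323).

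Other members of the endoplasmic reticulum are described beside BiP and HSP90B1, a choice made after the values were seen, which does not cover every such member and was given no test. DNAJB11, the main J-domain partner of BiP, had 5.43, 8.92 and 5.30 TPM at the IP against 3.16, 4.74 and 3.56 TPM at the PP, and it was separated with and without median-ratio scaling (log2 fold changes 0.36 and 0.63). DNAJC10, a disulfide reductase, had 19.9, 22.9 and 15.1 TPM at the IP against 12.6, 15.8 and 12.7 TPM at the PP, and DNAJC3, which also restrains the kinase PERK, had 8.36, 13.5 and 6.70 TPM and 6.42, 8.83 and 6.18 TPM. In both of these IP replicate 3 lay within the PP values, as did IP replicate 1 for DNAJC3. DNAJB9, a repressor of the sensor IRE1, had means of 47.5 ± 12.3 TPM at the IP against 43.6 ± 8.81 TPM at the PP (SD, n = 3), with overlap, as had DNAJC1 and HSPA13. BiP, HSP90B1 and DNAJB11 thus had each IP library above each PP library as deposited, as had 10.8% of all loci, and of the 3 DNAJB11 alone kept this after median-ratio scaling.

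HSPD1 and HSPE1 encode the chaperonin HSP60 and its lid HSP10, which form one folding chamber in mitochondria. In Sscrofa11.1 they lie back to back on chromosome 15 (HSPD1 from 101360355 to 101373498 on the minus strand, HSPE1 from 101374019 to 101376146 on the plus strand) with 520 bases between their starts, and the heat shock element printed above lies in that gap. Their levels did not follow each other. HSPD1 had 31.7, 53.6 and 22.5 TPM at the IP against 25.6, 29.9 and 25.0 TPM at the PP, highest in IP replicate 2. HSPE1 had 522, 726 and 811 TPM at the IP against 1394, 658 and 1091 TPM at the PP (means 686 ± 149 and 1047 ± 370 TPM, ± SD, n = 3). PP replicates 1 and 3 were above all IP libraries and PP replicate 2 was not, and HSPE1 had the lowest log2 fold change of all members (-0.57, standard error 0.31, adjusted p = 0.789), -0.89 with median-ratio scaling. The HSPE1 to HSPD1 ratio of TPM was 16.5, 13.5 and 36.0 in the IP libraries against 54.3, 21.97 and 43.6 in the PP libraries. The libraries with the highest median TPM (IP replicates 1 and 2 and PP replicate 2) thus had the lowest ratios. The longest HSPE1 mRNA in RefSeq has 568 bases, the shortest of the members with a length, and the part of transcript length or of processed copies in its value was not tested.

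**Figure D4:**
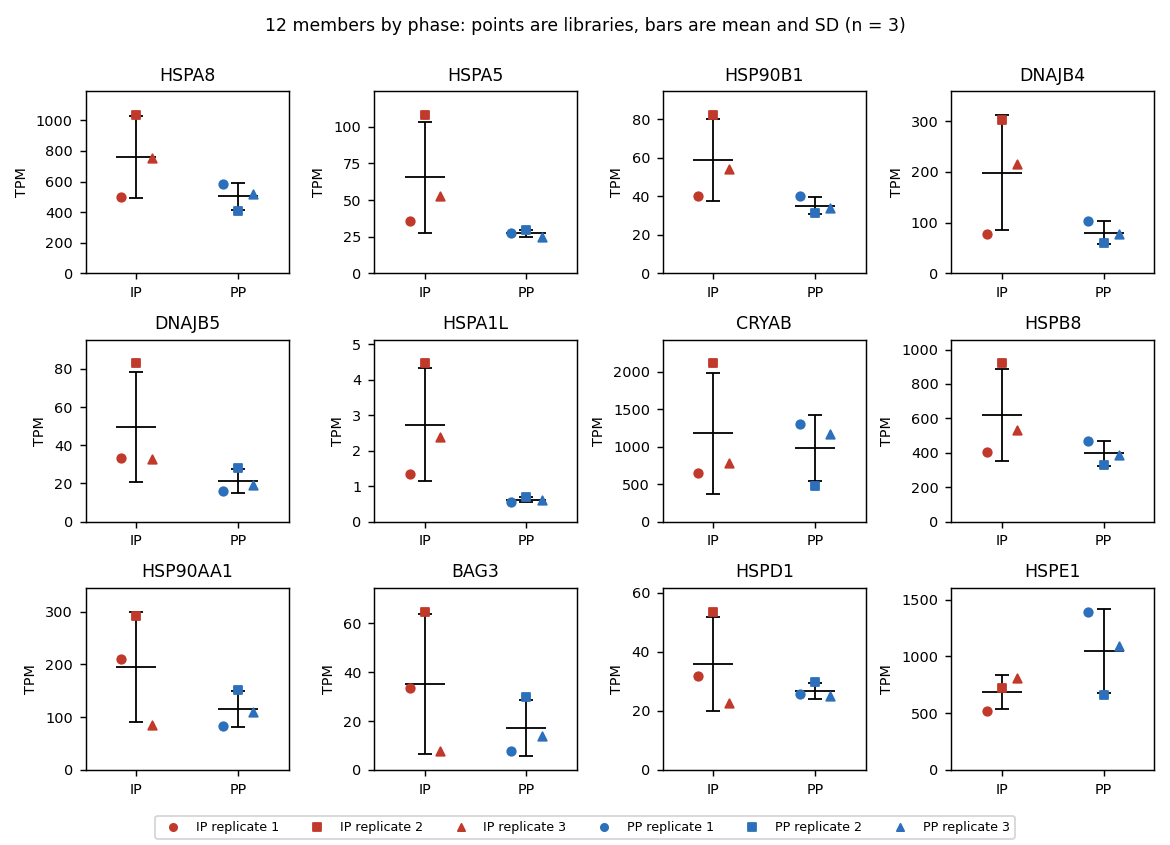
TPM of 12 members by phase, each panel from 0, with points for libraries (circle, square and triangle for replicates 1, 2 and 3) and bars for the mean and SD (n = 3). HSPA5, HSP90B1, DNAJB5 and HSPA1L show no overlap of the phases, while CRYAB spans 478 to 2109 TPM with both phases mixed and HSPE1 has its highest values at the PP.

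The DNAJA genes encode J-domain proteins of the type first described in bacteria. All 4 had a log2 fold change above 0 (0.29 to 0.52), but DNAJA2 and DNAJA3 lay below 0 with median-ratio scaling (-0.03 and -0.02). DNAJA1, a farnesylated partner of HSPA8, had 46.1, 140 and 88.6 TPM at the IP against 57.5, 72.5 and 56.2 TPM at the PP, with the lowest value also at the IP. DNAJA2, another cytosolic partner, had 41.8, 51.1 and 33.1 TPM at the IP against 29.8, 41.9 and 30.6 TPM at the PP. DNAJA3, the mitochondrial form, had 18.5 ± 3.92 TPM at the IP against 14.7 ± 0.957 TPM at the PP (SD, n = 3), and the phases overlapped.

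Of the 9 DNAJB genes, DNAJB4 and DNAJB5 had the largest differences, and both are related to DNAJB1, the J-domain protein of the classical heat shock response. DNAJB4 had 78.3, 303 and 215 TPM at the IP against 104, 59.8 and 76.7 TPM at the PP (means 199 ± 113 and 80.1 ± 22.2 TPM, ± SD, n = 3). IP replicates 2 and 3 were above every PP library while IP replicate 1 was below PP replicate 1 (log2 fold change 1.13, standard error 0.48, unadjusted p = 0.048, adjusted p = 0.712), and the value was 0.73 without IP replicate 2 and 1.69 without IP replicate 1. With median-ratio scaling it was 0.80 (unadjusted p = 0.194). DNAJB5 had 33.4, 82.9 and 32.7 TPM at the IP against 15.8, 28.1 and 19.4 TPM at the PP, with no overlap on either scale (log2 fold change 1.10, standard error 0.40, unadjusted p = 0.0273, adjusted p = 0.636, and 0.78 with median-ratio scaling). Without IP replicate 2 the value of DNAJB5 was 0.66.

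DNAJB1 itself had 39.6, 20.2 and 17.8 TPM at the IP against 21.99, 13.7 and 19.3 TPM at the PP, highest in IP replicate 1 and not in IP replicate 2. DNAJB6, a suppressor of aggregation at the Z-disc whose variants cause limb girdle muscular dystrophy in humans, had 127, 107 and 62.8 TPM at the IP against 89.5, 167 and 94.2 TPM at the PP. PP replicate 2 was the highest and IP replicate 3 the lowest (log2 fold change -0.24, adjusted p = 0.816), and after median-ratio scaling each PP library lay above each IP library (-0.57, unadjusted p = 0.0687). DNAJB2, a neuronal and muscle member that feeds clients to the proteasome, had the least difference of all (log2 fold change -0.01), although its PP libraries lay above its IP libraries after median-ratio scaling (-0.32). DNAJB12 and DNAJB14, held in the reticulum membrane, had means of 9.57 and 3.04 TPM at the IP against 7.24 and 2.83 TPM at the PP, with overlap.

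The 22 DNAJC genes share only the J domain and include proteins with other tasks. Their median log2 fold change was 0.27 beside 0.25 for all loci, and 18 of them lay above 0, 11 with median-ratio scaling. DNAJC19, part of the motor that imports proteins into mitochondria, was the most abundant and the most even at the IP, with 112, 116 and 116 TPM, beside 117, 147 and 137 TPM at the PP. It was the 1 member with each PP library above each IP library (log2 fold change -0.21, standard error 0.19, adjusted p = 0.805), but the nearest values were almost equal, and after median-ratio scaling the phases overlapped. DNAJC7, which binds HSP70 and HSP90 through repeats, had 46.5, 44.8 and 30.2 TPM at the IP against 19.9, 32.9 and 23.1 TPM at the PP (log2 fold change 0.66, standard error 0.28, unadjusted p = 0.0481, adjusted p = 0.712). Only PP replicate 2 of DNAJC7 lay above an IP library, and with median-ratio scaling none did, although its log2 fold change there was 0.35 (unadjusted p = 0.134). DNAJC12, a co-chaperone of the aromatic amino acid hydroxylases, was low and even, with 4.29, 4.05 and 4.43 TPM at the IP against 2.47, 2.003 and 2.83 TPM at the PP (log2 fold change 0.62, standard error 0.23, unadjusted p = 0.0284, adjusted p = 0.646). DNAJC12 did not have its highest value in IP replicate 2, and its log2 fold change stayed between 0.53 and 0.70 with any library left out, but after median-ratio scaling its phases overlapped and it was 0.37 (unadjusted p = 0.206).

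Of the other DNAJC genes, DNAJC8, a splicing-associated protein, had 22.8, 28.6 and 22.5 TPM at the IP against 17.2, 20.9 and 18.4 TPM at the PP. DNAJC5, the cysteine string protein of synaptic vesicles, had 11.8, 16.8 and 12.1 TPM at the IP against 10.9, 10.5 and 10.3 TPM at the PP. Neither of these separations was kept with median-ratio scaling (log2 fold changes 0.05 and 0.01). DNAJC18 was higher at the PP on that scale (-0.51, unadjusted p = 0.0421) with 4.31, 3.28 and 2.87 TPM at the IP against 3.90, 6.13 and 3.30 TPM at the PP as deposited, which overlap. DNAJC15, a mitochondrial relative of DNAJC19, overlapped between the phases (14.6 ± 2.59 and 12.3 ± 2.70 TPM, SD, n = 3).

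Most BAG genes encode regulators that bind the HSP70 nucleotide-binding domain. BAG3, which joins HSPB8, HSP70 and autophagy, had 33.5, 64.8 and 7.70 TPM at the IP against 7.69, 29.8 and 14.1 TPM at the PP (means 35.3 ± 28.6 and 17.2 ± 11.4 TPM, ± SD, n = 3). IP replicate 3 and PP replicate 1 were nearly equal and the lowest, and the log2 fold change of 0.76 had a standard error of 0.75 (adjusted p = 0.807). The log2 fold change of BAG3 was 0.44 with median-ratio scaling. Its partner HSPB8 had its second highest value in IP replicate 3, so these partners did not share an order of libraries. BAG1, an anti-apoptotic exchange factor, was the most even of the abundant BAG genes, with 43.2, 44.7 and 36.1 TPM at the IP against 30.7, 43.8 and 33.0 TPM at the PP, and its log2 fold change of 0.21 was -0.11 with median-ratio scaling. BAG6, which guards tail-anchored proteins, had 16.1, 22.7 and 8.65 TPM at the IP against 7.55, 12.6 and 8.53 TPM at the PP, and IP replicate 3 lay within the PP range. BAG2, an inhibitor of the ligase STUB1, had 6.81, 13.5 and 7.81 TPM at the IP against 6.71, 5.41 and 6.76 TPM at the PP, almost touching. BAG4 and BAG5 had means of 1.35 and 4.01 TPM at the IP against 0.980 and 3.28 TPM at the PP.

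HSPBP1, an HSP70 exchange factor, had 3.76, 5.67 and 3.20 TPM at the IP against 2.77, 3.28 and 2.25 TPM at the PP, overlapping by a single library. HSPBAP1, named for binding HSPB1, had 6.59, 4.53 and 2.52 TPM at the IP against 1.62, 7.06 and 2.69 TPM at the PP. The libraries rather than the phases ordered HSPBAP1, with IP replicate 1 and PP replicate 2 the highest.

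Across the members, IP replicate 3, PP replicate 1 and PP replicate 3 were the 3 lowest libraries for 29 of the 63 fitted (46.0%, beside 54.6% of all loci), among them BAG3, BAG6, HSP90AA1, HSP90AB1, HSPA9, HSPB1 and HSPD1. These are also the libraries with the lowest median TPM. By contrast CRYAB, HSPA8, HSPE1, HSPB3, HSPA14 and DNAJA4 were lowest in IP replicate 1 and PP replicate 2.

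**Figure D5:**
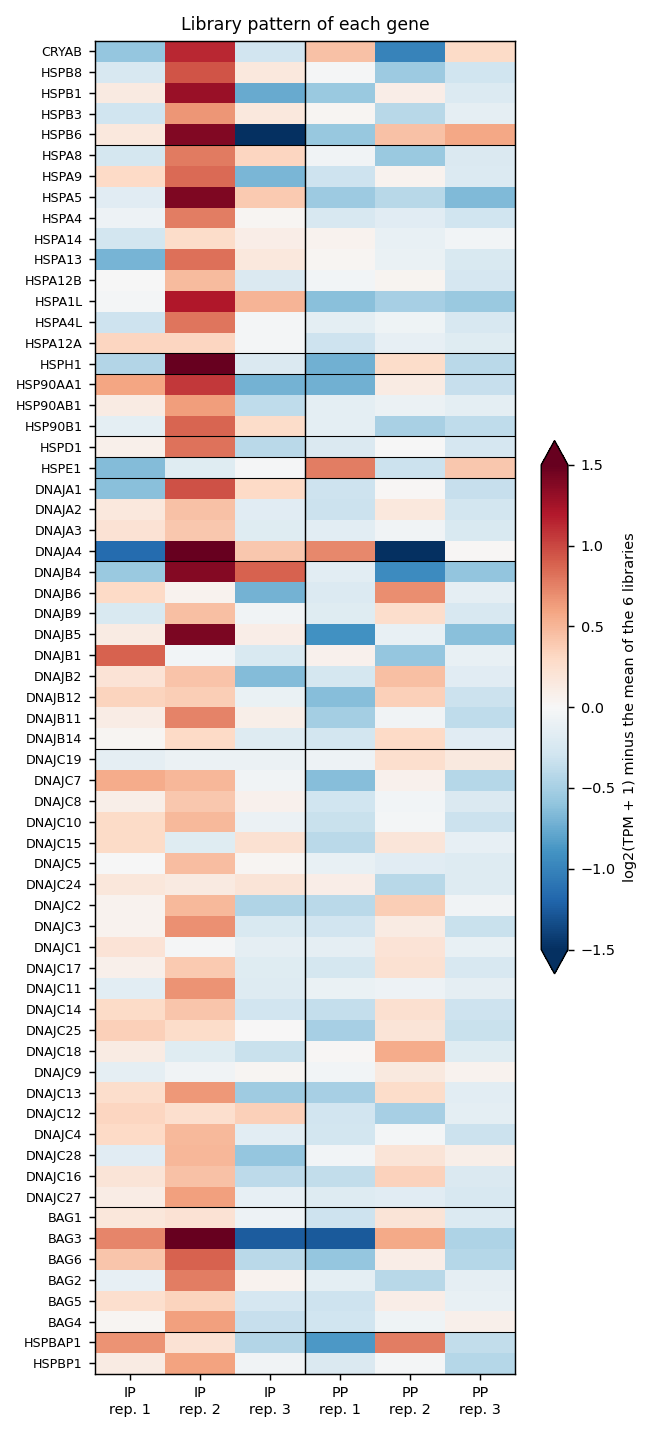
Each row is a member and each column a library, and the colour is log2(TPM + 1) minus the mean of the 6 libraries of that member (red above, blue below, the scale ending at 1.5 either way). The column of IP replicate 2 is red in most rows, CRYAB and DNAJA4 are blue in IP replicate 1 and PP replicate 2, and BAG3 is blue in IP replicate 3 and PP replicate 1.

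Partners of the chaperones were read from the same fit, and none passed an adjusted p under 0.05. The lists are read against all loci, of which 5.86% had an unadjusted p under 0.05 with the IP higher, 1.06% one with the PP higher, and 82.6% a log2 fold change above 0, with a median of 0.25. Of 5 heat shock factors and their binding proteins, none had an unadjusted p under 0.05 as deposited, and 1 did, higher at the PP, with median-ratio scaling. HSF1, the main factor of the stress response, had 7.83, 8.09 and 1.44 TPM at the IP against 1.10, 4.32 and 1.70 TPM at the PP. Its lowest libraries were IP replicate 3, PP replicate 1 and PP replicate 3, as for BAG3, HSP90AA1 and 54.6% of all loci. HSF4, which in mice acts in the lens, was the most abundant factor, with 63.4, 81.2 and 72.1 TPM at the IP against 84.6, 98.3 and 89.4 TPM at the PP. Each PP library of HSF4 was above each IP library (log2 fold change -0.33, standard error 0.20, adjusted p = 0.798). HSBP1L1 had 9.83, 10.7 and 5.64 TPM at the IP against 4.55, 5.67 and 5.95 TPM at the PP.

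Of 22 cytosolic partners of HSP90 and HSP70, 2 (9.09%) were higher at the IP at an unadjusted p under 0.05 and none at the PP, with a median log2 fold change of 0.33. With median-ratio scaling 1 was, and the median was 0.015. The 2 as deposited were ITGB1BP2, known as melusin, a muscle protein that binds HSP90 (23.2, 45.0 and 30.5 TPM at the IP against 11.11, 18.9 and 13.0 TPM at the PP, log2 fold change 1.12, adjusted p = 0.425), and STUB1, the ubiquitin ligase CHIP (58.3, 61.0 and 48.5 TPM at the IP against 39.0, 40.3 and 37.3 TPM at the PP, 0.51, adjusted p = 0.691). In both, as deposited, each IP library lay above each PP library, as in 10.8% of all loci. With median-ratio scaling STUB1 no longer had an unadjusted p under 0.05. SGTA, which works with BAG6, had 30.9, 38.3 and 14.6 TPM at the IP against 11.7, 19.6 and 13.6 TPM at the PP. Of 13 partners in mitochondria and the reticulum, 1 (7.69%) was higher at the IP in this way, near the share of all loci. It was SIL1, the exchange factor of BiP (4.21, 6.26 and 4.72 TPM at the IP against 3.02, 2.999 and 2.61 TPM at the PP, adjusted p = 0.674). TRAP1, the HSP90 of mitochondria, and SEC62, of the translocation pore, had log2 fold changes of 0.73 and 0.40 and no overlap as deposited. The phases of TRAP1 almost touched, with 5.43 TPM in IP replicate 3 and 5.33 TPM in PP replicate 1. As deposited, 3 of the 13 had each IP library above each PP library (23.1%, against 10.8% of all loci). The median of this list, 0.26 as deposited, was -0.0489 with median-ratio scaling, when none had an unadjusted p under 0.05.

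Of 14 folding and stress genes of the reticulum, 3 (21.4%, against 5.86% of all loci) were higher at the IP at an unadjusted p under 0.05 and all 14 had a log2 fold change above 0 (median 0.45, beside 0.25). With median-ratio scaling 4 were (28.6%, against 4.07%), 11 of the 14 lay above 0, and the median was 0.15 beside -0.01 for all loci. XBP1, the transcription factor of the unfolded protein response, had 55.5, 96.7 and 60.2 TPM at the IP against 34.1, 38.8 and 33.1 TPM at the PP (0.94, standard error 0.26, adjusted p = 0.425). The lowest IP value of XBP1 was thus above its highest PP value as deposited. The same held, with the nearest values closer together, for its neighbours in function CALR (46.7, 63.3 and 45.1 TPM, and 34.3, 36.8 and 30.6 TPM) and PDIA4 (14.1, 22.95 and 11.09 TPM, and 8.03, 9.60 and 8.51 TPM). As deposited, 4 of the 14 were separated in this way (28.6%, against 10.8% of all loci). Whether single genes of this list stayed separated with median-ratio scaling is not given. Of the 7 subunits of TRiC, the cytosolic chaperonin that folds actin and tubulin, and 7 genes of prefoldin and its relatives, none had an unadjusted p under 0.05, and the medians were 0.06 and 0.11. With median-ratio scaling the medians were -0.26 and -0.19, and 2 prefoldin genes were higher at the PP at an unadjusted p under 0.05. TCP1, CCT4 and CCT5 were highest in IP replicate 2 and overlapped between the phases. PFDN5 was above in each PP library (5.20, 5.11 and 3.54 TPM at the IP against 6.76, 6.76 and 6.25 TPM at the PP, adjusted p = 0.789), whereas PDRG1 and VBP1 overlapped. Of 10 clients and degradation partners of BAG3, STUB1 alone had an unadjusted p under 0.05 (1 of 10, median of the list 0.23), none did with median-ratio scaling (median -0.0609), and ILK (25.4, 32.9 and 22.6 TPM at the IP against 20.1, 18.8 and 18.1 TPM at the PP) and MAP1LC3B (254, 161 and 140 TPM, and 87.7, 173 and 125 TPM) followed.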

How the data were processed

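RNA of longissimus dorsi, 3 libraries per phase, was sequenced after poly(A) selection. The authors removed low-quality reads, aligned with TopHat, assembled with Cufflinks and deposited expression per locus as TPM, 1 column per library, without pooling. The build is Sscrofa11.1 in the submitters' processing notes and an earlier one in the methods. The TPM table holds no positions, so coordinates and promoters come from RefSeq on Sscrofa11.1, matched by symbol for 61 of 64 members.

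From the deposited TPM, log2(TPM + 1) was computed, and the 10896 loci with at least 1 TPM in at least 3 of 6 libraries entered 1 fit in limma 3.58.1 under R 4.3.3 (eBayes with trend, 2-sided, no block, Benjamini-Hochberg adjustment over all loci). The limma fit was tested on simulated data with independent errors for each locus and library. Shifts shared by the loci of a library were not simulated, so that test does not cover them. The members and the partner lists were chosen with earlier results of these data known. Named were all HSPA, HSPB, HSPD, HSPE, HSPH, HSP90 and BAG genes, members with a mean of at least 20 TPM or an unadjusted p under 0.05, and the 3 genes of smallest p in each DNAJ family and partner list; DNAJA4, DNAJB2, DNAJB12, DNAJB14 and DNAJC genes outside this rule were named after their values were seen. A total of 17 alternatives were planned and 1, the second replicate of both phases left out, was added after seeing the data. TPM hold no read numbers, so no counting interval was computed.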

Additional observations from a re-analysis of the deposited data

How the results depend on the processing

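No member passed an adjusted p under 0.05 in limma under any of the 18 alternatives, while 6 had an unadjusted p under 0.05. Of the 63 members fitted, 31 kept the sign of their log2 fold change throughout (27 above 0 and 4 below) and 32 changed it at least once. With median-ratio scaling, the members at an unadjusted p under 0.05 were 3 and the median log2 fold change of the members 0.0278, and the medians were 0.16 for the heat shock factors, 0.015 for the HSP90 and HSP70 partners, -0.26 for TRiC, -0.19 for prefoldin, -0.0609 for the partners of BAG3, -0.0489 for the organelle partners (0.26 as deposited) and 0.15 for the folding genes of the reticulum (0.45 as deposited). With quantile normalization the median was 0.0482 for the members, 0.17 for the heat shock factors, 0.0317 for the HSP90 and HSP70 partners, -0.22 for TRiC, -0.21 for prefoldin, -0.0652 for the organelle partners and 0.15 for the folding genes of the reticulum, and 8 members did not overlap between the phases. Without the assembled loci, 3 members had an unadjusted p under 0.05 and the prefoldin median was -0.0674. The loci called over the whole table numbered 16, and 4 with a pseudocount of 5, 0 with 1 TPM required in all libraries, and 1 without replicate 2 of both phases, when 30 members did not overlap (47.6%, against 39.9% of all loci). Loci past the unadjusted limits of p and fold numbered 280, and 429 and 108 with pseudocounts of 0.1 and 5. With a library left out, the members at an unadjusted p under 0.05 ran from 1 to 14 (1.59% to 22.2%, while all loci ran from 2.85% to 21.9%), the members without overlap from 13 to 29 (20.6% to 46.0%, while all loci ran from 13.9% to 43.8%), loci called from 2 to 22, loci past the unadjusted limits from 182 to 934, the median of the members from 0.10 to 0.50 and that of the heat shock factors from 0.0882 to 0.71. The cause of these changes was not tested. The replicate numbers did not pair the samples (correlations of same-numbered deviations -0.53, 0.20 and 0.22), and with the replicate block 3 loci were called and 6 members had an unadjusted p under 0.05.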

Other observations

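The relation of transcript length to the differences between libraries varied with the pair of libraries. Across 8012 genes with a RefSeq mRNA, the log2 length of the longest mRNA had a Pearson correlation of 0.41 with the difference between IP replicates 2 and 3 and of 0.37 with that between IP replicates 1 and 3, so longer transcripts were lower in IP replicate 3. Over the 60 members with a length the same correlations were 0.09 and 0.01. For some other pairs the members were close to all genes, with 0.29 against 0.30 for PP replicates 2 and 3 and 0.23 against 0.26 for IP replicate 2 and PP replicate 3. For others they were apart, at times with the opposite sign. These values were 0.13 against -0.18 for replicate 3 of both phases, -0.08 against -0.32 for IP replicate 3 and PP replicate 2, and 0.03 against -0.20 for PP replicates 1 and 3. For the fitted difference between the phases the correlations were 0.12 over all genes and 0.13 over the members. Genes of one library are not independent replicates, and these values are descriptions. By length, the median log2 fold change was 0.23 for the 11 members with mRNAs under 1500 bases, 0.37 for 25 members from 1500 up to 3000 bases and 0.30 for 24 longer members, beside 0.17, 0.24 and 0.28 for all genes of these lengths.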
